A study of Homo sapiens with 90 samples.

Results

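The 45 genes described here are interferon-stimulated genes, the genes that cells switch on when interferon binds its receptors. They were taken as a fixed list of symbols, each matched to an Ensembl identifier of the deposited gene table, and all 45 were found among its 53893 gene identifiers. RNA-seq was available for 6 human cancer cell lines, each in 5 arms of 3 libraries, giving 90 libraries in 30 groups. A375, a melanoma line, received vemurafenib, a BRAF inhibitor, at 1 uM. A549, a lung line, received GSK1120212 (trametinib, a MEK inhibitor) at 200 nM. H3122, a lung line, was given the ALK inhibitor crizotinib at 250 nM. N87, a gastric line, received lapatinib, an EGFR and HER2 inhibitor, at 100 nM. PC9, a lung line, received erlotinib, an EGFR inhibitor, at 1 uM. RT112, a bladder line, received BGJ398, an FGFR inhibitor, at 1 uM. The arms were 0.1% DMSO for 48 h, the targeted drug for 48 h, the targeted drug for 7 days, THZ1 for 48 h, and THZ1 with the targeted drug for 48 h (the combination). THZ1 is a covalent inhibitor of CDK7, a kinase of the transcription machinery, and was given at 50 nM in A375 and H3122, 150 nM in A549, 25 nM in N87 and 100 nM in PC9 and RT112. No 7-day vehicle arm was given, so drug exposure and time in culture cannot be told apart in the 7-day arm. Nothing in the labels tells if a group of 3 libraries stems from cultures kept apart, and p-values inside a line therefore reflect only the spread between those libraries, which may be technical.

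Type I interferons bind IFNAR1 and IFNAR2, and the attached kinases JAK1 and TYK2 phosphorylate STAT proteins. A complex that holds STAT2 and IRF9, called ISGF3, binds the interferon-stimulated response element (ISRE) in promoters of these genes, whereas interferon gamma acts mainly through gamma-activated sites (GAS). The products bind viral RNA, degrade RNA, restrict viral entry and budding, modify proteins with ISG15, or feed back on the pathway, and many tumour cells transcribe a part of them without added interferon.

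The ISRE is what most of the listed promoters share, and 8 stretches upstream of the RefSeq start show it in members that behaved differently under the drugs. Sequences are from RefSeq, build GRCh38.p14, written 5′ to 3′ on the strand of the gene, with each match to the ISRE core in capitals. The core was searched as GAAANNGAAA on the gene strand and as TTTCNNTTTC for the other strand, and overlapping matches were counted. The stretches lie at chr1:1013370-1013419, plus strand (ISG15), chr10:89392500-89392549, plus strand (IFIT1), chr19:17405725-17405774, minus strand (BST2) and chr4:168318776-168318825, minus strand (DDX60). The others lie at chr12:112938311-112938360, plus strand (OAS3), chr1:89065306-89065355, minus strand (GBP1), chr1:78620355-78620404, plus strand (IFI44L) and chr15:88638927-88638976, plus strand (ISG20), and all 8 end upstream of the start.
ISG15: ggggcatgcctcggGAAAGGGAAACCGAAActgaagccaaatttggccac
IFIT1: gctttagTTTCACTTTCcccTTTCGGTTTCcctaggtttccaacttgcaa
BST2: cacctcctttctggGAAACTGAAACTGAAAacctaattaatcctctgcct
DDX60: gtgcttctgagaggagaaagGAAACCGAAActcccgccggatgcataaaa
OAS3: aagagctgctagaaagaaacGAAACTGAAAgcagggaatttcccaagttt
GBP1: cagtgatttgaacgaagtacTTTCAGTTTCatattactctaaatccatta
IFI44L: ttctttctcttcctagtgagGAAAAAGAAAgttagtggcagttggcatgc
ISG20: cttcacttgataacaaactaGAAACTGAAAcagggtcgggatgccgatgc

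Promoter windows from 250 bases before to 50 bases after the start were in the RefSeq table for 35 of the 45 members. The core matched in a window of 24 of these 35 genes (68.6%), against 1195 of all 27305 genes in the table (4.4%). Counted by window, 28 of 47 member windows (59.57%) and 3.57% of all 35116 windows held a match. A GAS match (TTCNNNGAA, its own reverse complement) was found in 23.4% of member windows and 7.66% of all windows. IFIT3 had the most ISRE matches, 4 over its windows, and HERC5, IFI6, IFIH1 and IFIT5 had 3 each. PARP9 and DTX3L are transcribed away from each other from the same promoter region. The 1 match of DTX3L and the 1 match of PARP9 are the same site, read from either strand, and the second PARP9 window held none. The windows of CMPK2, HERC6, IFI35, IRF1, IRF9, OAS1, SAMD9L, SP100, STAT2, UBE2L6 and XAF1 held none, which says only that these letters are not there. A match is a description of letters and not a shown binding site. Members not in the table were IFIT2, OAS2, OASL, MX2, TRIM22, IFITM2, UBA7, USP18, IRF7 and GBP2.

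Libraries held 5641054 to 14361081 expected counts (median 10995068), and levels below are CPM, counts divided by the library total and scaled, compared within a gene. At the smallest depth 1 count is a larger step in CPM, so members near 0 carry mainly counting error. Pairs of libraries of one group differed by more than counting noise in every case, the least by 1.5 times the chi-square expected per gene. H3122 replicate 1 at 7 days lay farthest from its group, with a median absolute distance of 0.192 on the log2 scale, and RT112 replicate 1 with BGJ398 at 48 h lay at 0.139, against 0.07 for the closest library. Replicates 4 and 3 of the H3122 7-day group lay at 0.173 and 0.135. In vehicle, RT112 replicate 1 differed from its partners by 11.24 and 11.39 times the chi-square expected per gene. At 7 days RT112 replicate 1 differed from its partners by 8.7 and 9.58 times. One A375 library with vemurafenib for 48 h carries a lung tissue label, and its group was taken from its title. Melanocyte markers summed to 989 CPM in A375 vehicle and at most 38.5 CPM in the other lines. Urothelial markers were highest in RT112, at 830 CPM in vehicle, but also summed to 241 CPM in A549, 180 CPM in N87 and 143 CPM in PC9. Their sums were 7.24 CPM in A375 and 4.1 CPM in H3122. Lung epithelial markers were near 0 in A549 and PC9 (0.35 and 0.326 CPM) and reached 231 CPM in H3122. Gastric markers summed to 4.85 CPM in N87 vehicle and were highest in the lung lines A549 (342 CPM) and H3122 (195 CPM). For A549, PC9 and N87 the markers used here thus did not show the labelled tissue. Of 5 transcripts that report MAPK output, all fell across lines under the targeted drug, from -1.21 for SPRY2 to -5.1 for ETV4 on the log2 scale.

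In vehicle, N87 held the highest levels and A549 the lowest. At least 1 CPM in all 3 vehicle libraries was reached by 43 of the 45 members in N87, 40 in A375, 40 in PC9, 37 in H3122, 36 in RT112 and 24 in A549. N87 had the highest mean for 26 members, and A549 had the lowest mean for 29. The sum over the members was 3173 CPM in N87 and 480 CPM in A549, with 1682 in A375, 1398 in RT112, 1289 in PC9 and 1266 in H3122 between them. Members detected in all 6 lines numbered 22, and 3 were detected in 1 line only. The plot of vehicle levels shows this contrast of columns for most rows.

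**Figure D1:**
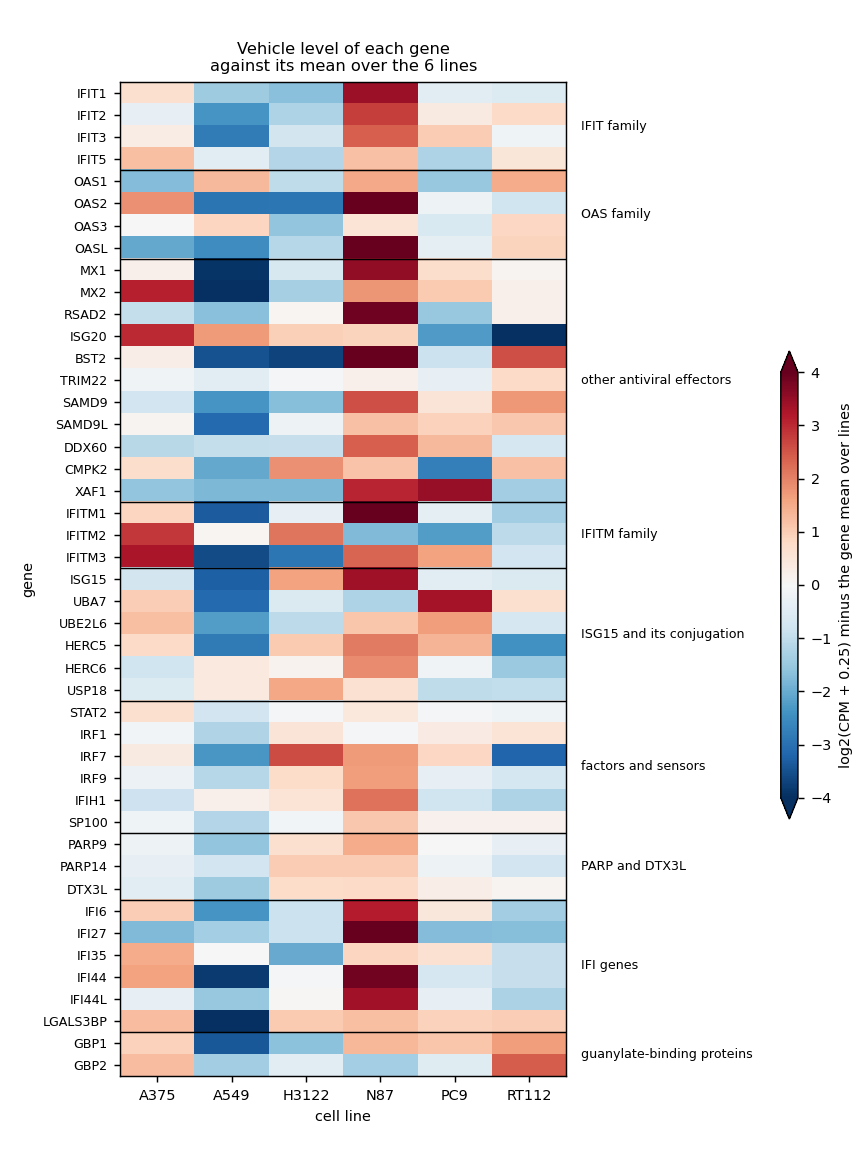
Vehicle level of each of the 45 genes (rows, grouped by role) in 6 cell lines (columns), as log2(CPM + 0.25) of the group mean minus the mean of that gene over the lines. The N87 column is highest for 26 genes and the A549 column lowest for 29.

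Members differed widely in how far their vehicle level varied between lines. IFI27, a small mitochondrial and nuclear-envelope protein, showed the largest ratio between lines, with 199, 195 and 215 CPM in N87, 0.687, 0.483 and 0.0978 CPM in H3122 and 0.309, 0.196 and 0.175 CPM in A549. For the same gene, IFI27, the remaining lines held 0.358, 0 and 0 CPM in RT112, 0.174, 0.0858 and 0.08999 CPM in PC9 and 0.162, 0 and 0.164 CPM in A375. The N87 libraries for IFI27 stood far above all the others, and every library of the other 5 lines was below 1 CPM. BST2, the tetherin that holds budding virions at the membrane, came next, at 179, 184 and 185 CPM in N87, 29.01, 29.7 and 29.7 CPM in RT112 and 6.47, 5.14 and 5.67 CPM in A375. Lower BST2 levels were 1.997, 2.402 and 2.97 CPM in PC9, 0.309, 0 and 0.263 CPM in A549 and 0.0982, 0.0966 and 0.196 CPM in H3122. BST2 in N87 did not overlap any other line. MX2, a dynamin-like GTPase against retroviruses, was at 64.8, 65.7 and 69.8 CPM in A375, 25.4, 24.5 and 27.4 CPM in N87 and 17.3, 14.3 and 15.1 CPM in PC9. Its lower lines were 13.1, 7.31 and 5.501 CPM in RT112, 1.96, 3.19 and 3.23 CPM in H3122 and 0.0773, 0 and 0 CPM in A549. MX2 was highest in A375, not N87, and its A549 level rested on single counts.

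The opposite end of the order held genes whose vehicle levels lay close together. TRIM22, a RING-domain antiviral protein, was at 8.17, 6.57 and 9.06 CPM in RT112, 5.66, 4.67 and 5.46 CPM in N87 and 2.94, 4.44 and 5.28 CPM in H3122. TRIM22 followed at 4.04, 3.05 and 5.18 CPM in A375, 3.13, 4.03 and 3.60 CPM in PC9 and 2.63, 4.11 and 3.06 CPM in A549. RT112 lay above the other lines for TRIM22, and each of the other 5 overlapped its neighbours in the order. STAT2 was at 53.5, 47.2 and 51.4 CPM in A375, 43.6, 42.2 and 44.3 CPM in N87 and 28.1, 31.1 and 33.4 CPM in H3122. Then came 29.7, 29.6 and 32.7 CPM in PC9, 27.5, 28.4 and 29.1 CPM in RT112 and 19.8, 18.5 and 18.3 CPM in A549. For STAT2, A375 and N87 stood above the rest, H3122 overlapped both PC9 and RT112, and A549 was separate at the bottom. IRF1, the factor induced by interferon gamma, was at 28.1, 26.6 and 26.5 CPM in RT112, 26.3, 24.9 and 29.8 CPM in H3122 and 20.8, 21.7 and 27.7 CPM in PC9. IRF1 then ran at 16.5, 18.5 and 18.6 CPM in N87, 17.9, 16.4 and 16.9 CPM in A375 and 8.81, 7.83 and 7.35 CPM in A549. IRF1 in RT112, H3122 and PC9 overlapped, A375 and N87 overlapped below them, and A549 lay below both groups of lines.

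With the targeted drug for 48 h, members rose far more often than they fell. Across lines, with the cell line as the replicate, 18 of the 32 members tested rose and 0 fell, against 18.6% and 18.5% of 11875 genes (edgeR quasi-likelihood test, Benjamini-Hochberg adjusted p under 0.05). The median member differed from vehicle by 0.90 on the log2 scale, and the median over all genes tested was 0.05. The other 13 members did not reach 1 CPM in 3 libraries of every line and have values only within lines. Without RT112, 10 members rose across lines. Over all 6 lines, 1 member was lower at an unadjusted p under 0.05 with the edgeR test, and DESeq2 called 20 higher and 1 lower.

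Within each line, members called higher outnumbered members called lower. In RT112, 39 of 44 members tested rose with BGJ398 and 2 fell, where 34.2% and 35.1% of 15298 genes did, and the median member changed by 1.84, against 0.02 for all genes. GSK1120212 in A549 raised 29 of 35 and lowered 4, with 36.8% and 37.4% of 14810 genes as background and medians of 1.62 and 0.00. Lapatinib in N87 raised 34 of 45 and lowered 5, against 35.5% and 35.4% of 15370 genes, with a median of 0.60 beside 0.04. Leaving replicate 1 out of every RT112 arm, since its 48 h library lay apart, left 39 higher and 2 lower there. For erlotinib in PC9 the counts were 26 higher and 5 lower of 41, against 35.2% and 32.8% of 15311 genes, and the medians were 0.47 and 0.03. Vemurafenib in A375 gave 21 higher and 7 lower of 41, against 34.3% and 32.9% of 16106 genes, with medians of 0.35 and 0.03. Crizotinib in H3122 gave 18 higher and 3 lower of 42, against 22% and 24.1% of 14905 genes, with medians of 0.27 and 0.01. Members that entered a test only because they were high in 1 arm had to differ between arms, so these counts describe the members tested and not all 45. The number of lines in which a member rose ranged from 0 to 6: 8 members rose in all 6 lines, 18 in 5 or more and 25 in 4 or more, while 11 rose in some lines and fell in others. Lines were not counted in this way for all genes, so these numbers have no background and only describe the members. The heat map of changes under the targeted drug shows RT112 and A549 as the fullest columns.

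**Figure D2:**
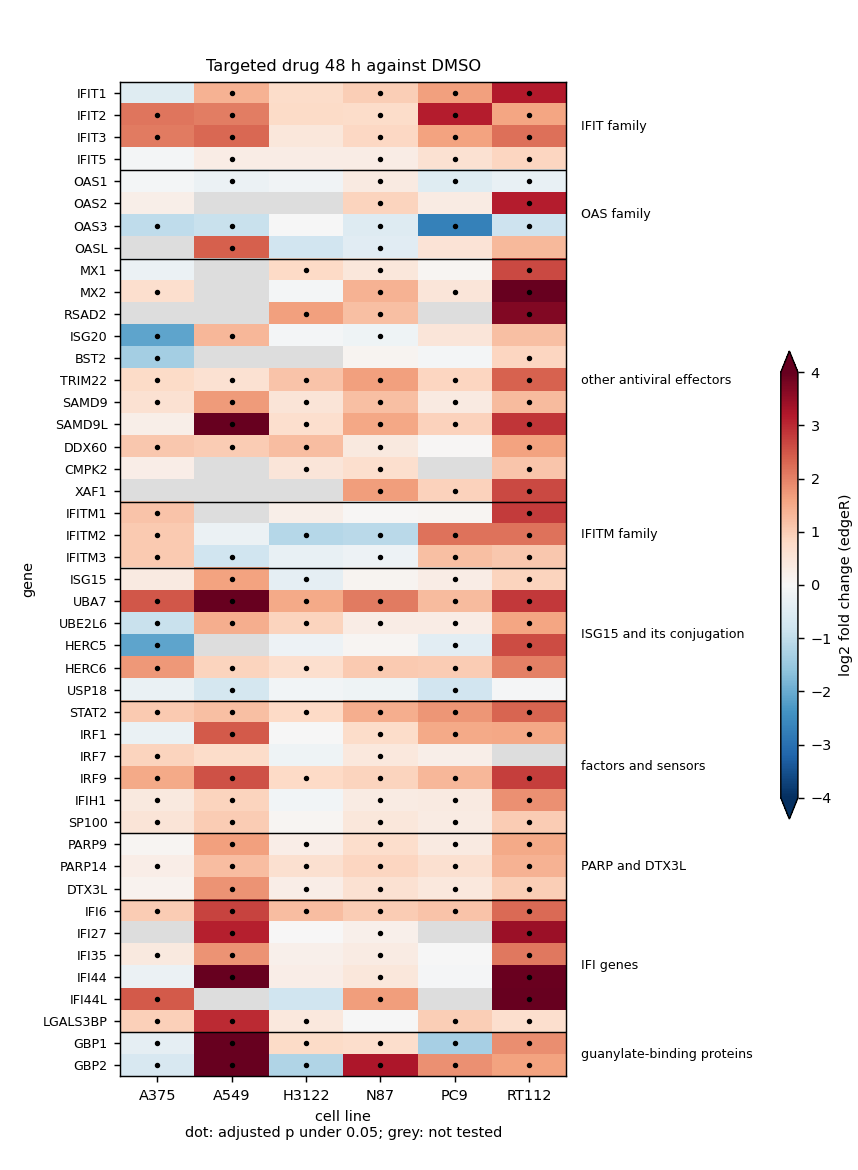
log2 fold change of each member, targeted drug for 48 h against DMSO for 48 h, in 6 lines (edgeR, 3 libraries per arm); red is higher with drug and blue lower, dots mark adjusted p under 0.05 and grey cells were not tested. TRIM22, SAMD9, UBA7, HERC6, STAT2, IRF9, PARP14 and IFI6 carry a red dot in all 6 columns, and OAS3 carries a blue dot in 5.

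STAT2 and IRF9, the ISGF3 subunits among the members, rose in every line. STAT2, the subunit of ISGF3 that supplies the activation domain, was measured at 53.5, 47.2 and 51.4 CPM in A375 vehicle and 93.3, 115 and 109 CPM with drug, and at 19.8, 18.5 and 18.3 and 42.7, 43.4 and 43.6 CPM in A549. In H3122 the STAT2 values were 28.1, 31.1 and 33.4 CPM in vehicle and 57.3, 57.3 and 58.6 CPM with drug, and in N87 they were 43.6, 42.2 and 44.3 and 121, 123 and 134 CPM. STAT2 levels in PC9 were 29.7, 29.6 and 32.7 CPM in vehicle and 94.1, 89.5 and 98.4 CPM with drug, and those in RT112 were 27.5, 28.4 and 29.1 and 149.7, 157 and 168 CPM. Treated and vehicle libraries of STAT2 did not overlap in any line, and the change across lines was 1.5 (SE 0.21, adjusted p = 9.04e-05). IRF9, the DNA-binding subunit of ISGF3, stood at 6.79, 4.98 and 7.15 CPM in A375 vehicle and 18.6, 17.8 and 18.9 CPM with drug, and at 4.41, 2.94 and 2.45 and 19.9, 18.4 and 19.6 CPM in A549. In H3122 the IRF9 values were 13.7, 13.5 and 9.97 CPM in vehicle and 24.7, 19.9 and 25.5 CPM with drug, and in N87 they were 24.6, 24.01 and 23.8 and 45.5, 47.7 and 50.9 CPM. IRF9 levels in PC9 were 7.12, 5.66 and 4.77 CPM in vehicle and 12.4, 14.2 and 13.9 CPM with drug, and those in RT112 were 4.16, 4.11 and 5.27 and 32.8, 36.7 and 33.5 CPM. No line overlapped for IRF9, and it differed across lines by 1.63 (SE 0.32, adjusted p = 0.000754). IRF1 rose in 4 lines, most in A549 (2.44), and IRF7, which amplifies interferon production, rose in 2 of the 5 lines in which it was tested. IFIH1, the MDA5 sensor of double-stranded RNA, rose in 5 lines, up to 1.82 in RT112, and was at -0.10 in H3122 (adjusted p = 0.583). SP100, a nuclear-body protein, rose in 5 lines, between 0.31 in PC9 and 1.03 in RT112 on the log2 scale.

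ISG15 and the enzymes that attach it to proteins did not move as a block. UBA7, the E1 enzyme that activates ISG15, was measured at 5.66, 4.82 and 5.999 CPM in A375 vehicle and 28.5, 31.9 and 33.4 CPM with drug, and at 0.0773, 0.0979 and 0.0875 and 2.44, 2.69 and 2.94 CPM in A549. In H3122 the UBA7 values were 1.37, 1.74 and 1.96 CPM in vehicle and 4.35, 4.93 and 6.25 CPM with drug, and in N87 they were 1.25, 0.875 and 0.819 and 4.21, 5.55 and 3.76 CPM. UBA7 levels in PC9 were 26.8, 27.1 and 32.2 CPM in vehicle and 62.7, 66.02 and 60.2 CPM with drug, and those in RT112 were 4.16, 4.33 and 4.26 and 32.7, 33.5 and 34.1 CPM. UBA7 libraries of the 2 arms did not overlap in any line, and its change across lines, 2.28 (SE 0.56, adjusted p = 0.00349), was the highest of the members tested. In A549 the vehicle libraries of UBA7 held 3 counts in all against 88 with drug, a ratio of 30.9 with a 95% exact counting interval of 10.2 to 152. UBE2L6, the E2 enzyme, rose in 5 lines and fell in A375 (-0.88). HERC5, the E3 ligase, rose in RT112 (2.61) and fell in A375 and PC9, whereas HERC6 rose in all 6 lines, by 0.69 to 2.03. ISG15 itself rose in A549, PC9 and RT112, up to 1.62, and fell by 0.36 in H3122. USP18, the protease that removes ISG15 and restrains the receptor, rose in no line and fell in A549 (-0.71) and PC9 (-0.75). ISG15 in H3122 did not pass on leaving out any 1 of the 6 libraries (adjusted p = 0.0607 to 0.12).

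The IFIT genes, whose products bind viral RNA and hold back its translation, rose in most lines. IFIT2 was measured at 5.498, 3.21 and 4.19 CPM in A375 vehicle and 23.2, 16.8 and 17.3 CPM with drug, and at 0.927, 0.783 and 0.875 and 3.12, 4.398 and 3.24 CPM in A549. In H3122 the IFIT2 values were 1.77, 2.03 and 2.74 CPM in vehicle and 3.44, 3.696 and 4.76 CPM with drug, and in N87 they were 38.01, 41.99 and 34.6 and 70.4, 63.7 and 70.2 CPM. IFIT2 levels in PC9 were 7.73, 6.52 and 6.93 CPM in vehicle and 57.01, 57.05 and 56.9 CPM with drug, and those in RT112 were 9.098, 9.26 and 10.1 and 27.3, 36.9 and 29.99 CPM. H3122 was the single line in which IFIT2 did not pass the test (0.76, adjusted p = 0.062), although its libraries did not overlap, and the change across lines was 1.8 (SE 0.42, adjusted p = 0.0024). IFIT3 ran at 9.38, 9.31 and 8.96 CPM in A375 vehicle and 41.96, 36.9 and 38.6 CPM with drug, and at 0.464, 0.979 and 1.14 and 3.29, 3.95 and 5.16 CPM in A549. In H3122 the IFIT3 values were 4.81, 3.96 and 4.302 CPM in vehicle and 5.41, 7.298 and 6.45 CPM with drug, and in N87 they were 38.6, 39.5 and 42.2 and 81.3, 68.02 and 78.5 CPM. IFIT3 levels in PC9 were 14.2, 14.9 and 16.6 CPM in vehicle and 42.6, 44.3 and 41.1 CPM with drug, and those in RT112 were 6.09, 6.34 and 7.51 and 33.2, 35.3 and 34.7 CPM. All lines separated for IFIT3, H3122 by the least (0.45, adjusted p = 0.179), and the change across lines was 1.53 (SE 0.42, adjusted p = 0.0072). IFIT1 stood at 8.09, 4.495 and 4.602 CPM in A375 vehicle and 3.02, 3.81 and 4.58 CPM with drug, and at 1.78, 0.881 and 0.963 and 2.78, 3.68 and 3.14 CPM in A549. In H3122 the IFIT1 values were 0.687, 1.26 and 0.978 CPM in vehicle and 1.97, 1.896 and 1.29 CPM with drug, and in N87 they were 37.9, 40.5 and 44.6 and 86.2, 82.3 and 93.01 CPM. IFIT1 levels in PC9 were 3.299, 2.75 and 1.80 CPM in vehicle and 7.47, 6.41 and 8.55 CPM with drug, and those in RT112 were 2.72, 2.24 and 2.32 and 25.1, 24.4 and 24.1 CPM. A375 overlapped for IFIT1 (-0.50, adjusted p = 0.125) and the other lines did not, with a change of 1.33 (SE 0.49, adjusted p = 0.0361) across lines. Across lines IFIT1 did not pass without A549, without PC9 or without RT112 (adjusted p = 0.0791, 0.108 and 0.0846). IFIT5 rose in 4 lines by 0.28 to 0.86.

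Among antiviral effectors with other activities, some rose in nearly every line, and others rose, or could be tested, in fewer lines. SAMD9L, a large cytosolic antiviral protein, was at 9.05, 5.46 and 7.48 CPM in A375 vehicle and 8.89, 8.89 and 8.56 CPM with drug, and at 0.464, 0.489 and 0.7001 and 7.67, 10.2 and 8.71 CPM in A549. In H3122 the SAMD9L values were 5.497, 5.602 and 6.45 CPM in vehicle and 9.27, 9.76 and 10.9 CPM with drug, and in N87 they were 14.8, 14 and 17.9 and 46.5, 48.9 and 50.5 CPM. SAMD9L levels in PC9 were 12.8, 12.3 and 14.2 CPM in vehicle and 21.5, 23.2 and 23.4 CPM with drug, and those in RT112 were 15.2, 13.96 and 14.3 and 119.8, 116 and 119 CPM. SAMD9L overlapped in A375 alone, and its change across lines was 1.56 (SE 0.52, adjusted p = 0.0223), which did not pass without N87 or without RT112 (adjusted p = 0.0676 and 0.109). SAMD9 rose in all 6 lines by 0.36 to 1.69, TRIM22 in all 6 by 0.61 to 2.36, and DDX60, a helicase of the RIG-I pathway, in all but PC9. MX1 rose in H3122, N87 and RT112 (2.63 in RT112), and MX2 in A375, N87, PC9 and RT112, with each tested in 5 lines. RSAD2, the radical SAM enzyme viperin, and XAF1, an antagonist of the apoptosis inhibitor XIAP, each rose in all 3 lines in which they were tested. CMPK2, a mitochondrial nucleotide kinase, rose in 3 of the 4 lines tested. ISG20, an RNA exonuclease, rose in A549 (1.34) and fell in A375 (-2.11) and N87 (-0.18). BST2, tested in 4 lines, rose in RT112 (0.85) and fell in A375 (-1.38).

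OAS3, an enzyme that makes the short oligoadenylates that activate RNase L, was the member called lower in the most lines. OAS3 was measured at 77.9, 81.6 and 77.5 CPM in A375 vehicle and 34.7, 41.6 and 41.1 CPM with drug, and at 142, 142 and 150.2 and 79.4, 78.2 and 76.01 CPM in A549. In H3122 the OAS3 values were 24.6, 27.4 and 27.3 CPM in vehicle and 28.1, 28.9 and 27.9 CPM with drug, and in N87 they were 121, 106 and 122 and 83.2, 77.6 and 97.4 CPM. OAS3 levels in PC9 were 56.1, 53.96 and 47.3 CPM in vehicle and 8.59, 6.41 and 6.82 CPM with drug, and those in RT112 were 137, 140.2 and 145 and 85.3, 90.2 and 93.2 CPM. Treated OAS3 libraries lay below vehicle in 5 lines and overlapped none of them there, while in H3122 the treated libraries lay just above vehicle in CPM and the fitted change, which allows for library composition, was 0.00 (adjusted p = 0.993). The changes in OAS3 ran from -0.53 in N87 to -2.71 in PC9 among the lines where it fell, and its change across lines was -0.83 (SE 0.34, adjusted p = 0.0605). OAS1 fell in A549 (-0.22), PC9 (-0.48) and RT112 (-0.28) and rose in N87 (0.36). OAS2 rose in N87 (0.90) and RT112 (3.15), and OASL, which lacks the synthetase activity, rose in A549 (2.39) and fell in N87 (-0.47). OAS3 has 2 ISRE matches in its window, 1 of them printed above, and OAS1 has none.

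IFITM proteins, which keep viruses from fusing with endosomal membranes, are encoded by 3 close paralogs, so reads could be divided between them and their separate values are uncertain. All 3 rose in A375 and RT112, IFITM1 by 2.79 in RT112. IFITM2 fell in H3122 (-1.13) and N87 (-1.09), and IFITM3 fell in A549 (-0.80) and N87 (-0.21). IFITM3 in A549 did not pass on leaving out any 1 library other than vehicle replicate 3 or 48 h drug replicate 4 (adjusted p = 0.0531 to 0.143). PARP14, an ADP-ribosyltransferase, rose in all 6 lines by 0.27 to 1.38, and PARP9 and its partner DTX3L, an E3 ubiquitin ligase, rose in all but A375, most in A549 (1.65 and 1.78). IFI6, a small membrane protein that limits apoptosis, was at 13.1, 18.8 and 17.7 CPM in A375 vehicle and 29.4, 36.2 and 35.2 CPM with drug, and at 1.55, 1.17 and 1.49 and 9.95, 7.72 and 10.02 CPM in A549. In H3122 the IFI6 values were 4.91, 4.06 and 4.204 CPM in vehicle and 10.9, 11.8 and 10.8 CPM with drug, and in N87 they were 72.8, 70.9 and 76.8 and 181, 142 and 154 CPM. IFI6 levels in PC9 were 9.46, 11.2 and 13.2 CPM in vehicle and 24.7, 18.6 and 24.5 CPM with drug, and those in RT112 were 2.94, 2.98 and 3.02 and 14.4, 15.6 and 18.1 CPM. No line overlapped for IFI6, whose change across lines was 1.51 (SE 0.51, adjusted p = 0.0236) and did not pass without A549 (adjusted p = 0.0671). IFI44 rose in A549, N87 and RT112, IFI44L in A375, N87 and RT112, IFI27 in A549, N87 and RT112, and IFI35 in A375, A549, N87 and RT112. Only 4 lines could be tested for IFI44L and for IFI27. LGALS3BP, a secreted galectin-binding glycoprotein, rose in all but N87, and most in A549 (2.98). GBP1 and GBP2, large GTPases induced most strongly by interferon gamma, rose in A549 by 6.98 and 4.66 and fell in A375 by 0.37 and 0.63.

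**Figure D3:**
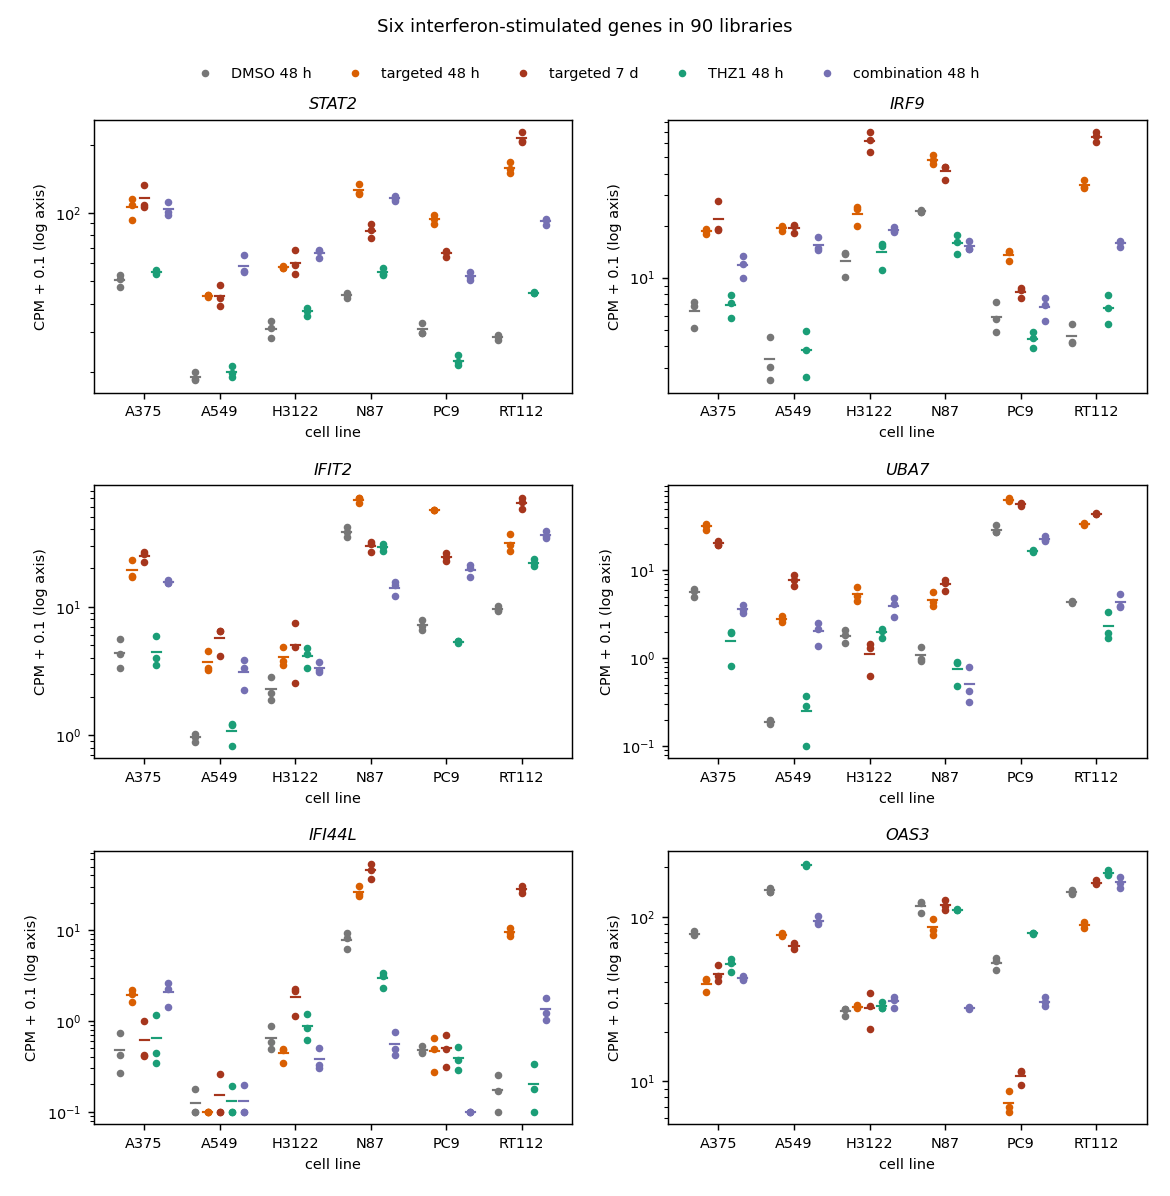
CPM + 0.1 on a log axis of 6 members in each of the 90 libraries, by cell line; points are libraries, bars the mean of 3, and colours the 5 arms. STAT2, IRF9, IFIT2 and UBA7 are higher with the targeted drug (orange) than in vehicle (grey) in every line, IFI44L in some lines, and OAS3 is lower in 5.

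Several of the largest changes within single lines were of members near 0 in vehicle, which could pass the filter on low counts only through the arms where they were high, so their large rise follows in part from that filter. In A549, GBP1 was at 0, 0.587 and 0.175 CPM in vehicle and 30.4, 28.4 and 32.4 CPM with GSK1120212, a change of 6.98 (SE 0.23, adjusted p = 1.9e-16). IFI44 in A549 was at 0.0773, 0 and 0 CPM in vehicle and 1.26, 1.26 and 1.42 CPM with GSK1120212, 5.02 (SE 0.66, adjusted p = 7.04e-07), which rested on 1 vehicle count against 43 (ratio 45.2, 95% exact interval 7.69 to 1830). OAS3 gave the largest fall in A549, -0.88 (SE 0.05, adjusted p = 9.57e-13). The treated GBP1 and IFI44 libraries of A549 lay far above vehicle, from near absence. In RT112, IFI44L was at 0.0716, 0 and 0.155 CPM in vehicle and 10.4, 9.19 and 8.47 CPM with BGJ398, or 3 counts against 360 (ratio 126, 95% exact interval 42.7 to 613), with a fitted change of 6.65 (SE 0.39, adjusted p = 2.07e-10). MX2 in RT112 was at 13.1, 7.31 and 5.501 CPM in vehicle and 198, 144 and 143 CPM with BGJ398, 4.06 (SE 0.21, adjusted p = 5.45e-11), and IFI44 changed by 3.95 (SE 0.15, adjusted p = 1.06e-12). OAS3 (-0.81) and OAS1 (-0.28) were the RT112 members that fell. IFI44L and MX2 in RT112 started below 15 CPM in every vehicle library and did not overlap vehicle with BGJ398.

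N87, PC9, A375 and H3122 had leaders of their own. GBP2 in N87 was at 3.65, 4.28 and 4.55 CPM in vehicle and 39.7, 41.2 and 44.4 CPM with lapatinib, 3.23 (SE 0.09, adjusted p = 3.03e-17), ahead of UBA7 (2.09) and XAF1 (1.67). IFITM2 in N87 was at 1.15, 1.65 and 0.909 CPM in vehicle and 1.16, 0.404 and 0.297 CPM with lapatinib, the largest fall there, -1.09 (SE 0.43, adjusted p = 0.0305). GBP2 separated fully between the arms in N87, and IFITM2 was a low and scattered gene there. IFITM2 in N87 did not pass without vehicle replicate 2, 48 h drug replicate 2 or 48 h drug replicate 3 (adjusted p = 0.118 to 0.151). PC9 was led by IFIT2, 3.14 (SE 0.09, adjusted p = 7.06e-18), and by IFITM2, at 0.781, 0.686 and 0.9899 CPM in vehicle and 3.43, 3.74 and 3.001 CPM with erlotinib, 2.17 (SE 0.30, adjusted p = 2.14e-06). GBP2 rose by 1.83 in PC9, where OAS3 changed by -2.71 (SE 0.10, adjusted p = 1.52e-15), GBP1 by -1.32 and USP18 by -0.75. The pair of guanylate-binding genes thus changed in opposite directions in PC9, as they also did in H3122, where GBP1 rose by 0.76 and GBP2 was at 8.34, 6.57 and 9.48 CPM in vehicle and 3.69, 3.79 and 3.77 CPM with crizotinib, -1.21 (SE 0.16, adjusted p = 6.01e-06). RSAD2 in H3122 was at 0.785, 0.5796 and 0.391 CPM in vehicle and 1.72, 1.61 and 2.58 CPM with crizotinib, 1.63 (SE 0.41, adjusted p = 0.0033), with UBA7 next (1.5) and then IFI6 (1.25). A375 was led by UBA7, 2.49 (SE 0.14, adjusted p = 6.21e-12), with IFI44L next and then IFIT2 (2.13). IFI44L in A375 was at 0.647, 0.321 and 0.164 CPM in vehicle and 1.51, 1.91 and 2.08 CPM with vemurafenib, 2.44 (SE 0.56, adjusted p = 0.00085). IFI44L in A375, RSAD2 in H3122 and IFITM2 in PC9 were each under 1 CPM in every vehicle library. They passed the filter on low counts through arms where they were higher, so their rises follow in part from that filter. HERC5 in A375 was at 5.98, 5.298 and 5.92 CPM in vehicle and 1.34, 1.75 and 1.04 CPM with vemurafenib, -2.12 (SE 0.25, adjusted p = 3.3e-07), beside ISG20 at 93.8, 93.6 and 99.5 CPM in vehicle and 20.98, 22.2 and 23.0 CPM with vemurafenib, -2.11. Both HERC5 and ISG20 separated fully between the 2 arms of A375, downward.

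THZ1 alone changed members in directions that depended on the line, and no member passed across lines. Of 32 members tested across lines, 0 rose and 0 fell with the edgeR quasi-likelihood test, as did 0.0589% and 0.0253% of 11875 genes, and 0 reached an unadjusted p under 0.05. The median member was at -0.05, and DESeq2 also called 0 in either direction. Within N87, 1 member rose and 32 of 45 fell, against 14.1% and 16.3% of 15370 genes, with a median of -0.40 beside 0.01 for all genes. A375 had 7 higher and 17 lower of 41, against 26.5% and 28.9% of its genes, with medians of -0.29 and -0.01. PC9 had 7 higher and 19 lower of 41, against 26.1% and 27.7%, with medians of -0.24 and -0.01. Falls thus took a larger share of members than of genes in N87, A375 and PC9. RT112 leaned the other way, with 17 higher and 4 lower of 44, against 21% and 20.4%, and medians of 0.26 and 0.00. In A549 the counts were 8 higher and 7 lower of 35, against 25% and 21.5%, with medians of 0.06 and 0.02. H3122 had 9 higher and 2 lower of 42, against 10.8% and 12.3%, with medians of 0.17 and 0.00. With its 2 groups fitted alone 16 members rose, and 4914 of 13710 genes were called in either direction. The main fit of H3122 called 1617 genes higher and 1829 lower of 14905, so the count over all genes grew as well. Rises took a larger share of members than of genes in RT112 and H3122, and the A549 shares were at or under the background. With replicate 1 left out of every RT112 arm the counts there were 20 higher and 3 lower, the A549 rises numbered 5 without vehicle replicate 2, and the H3122 rises numbered 4 or 5 on leaving out vehicle replicate 2, 3 or 4 or THZ1 replicate 2 or 4. On those H3122 leave-outs 2511 to 2666 genes were called in either direction, also fewer than in the main fit. Falls with THZ1 numbered 1 in H3122 without vehicle replicate 2 or 4 or THZ1 replicate 1, and 2 in RT112 without THZ1 replicate 2.

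ISG15 rose with THZ1 in 5 of 6 lines, A375, PC9 and A549 among them, and fell in N87 (-0.31). It was at 9.54, 7.22 and 8.05 CPM in vehicle and 22.3, 20.2 and 19.6 CPM with THZ1 in A375, 1.2 (SE 0.14, adjusted p = 1.1e-06), and rose by 0.67 in PC9 and 0.82 in A549. Its A375 libraries with THZ1 all lay above vehicle. IFIT1 had the largest called rise in A549 (1.08) and in H3122, where it was at 0.687, 1.26 and 0.978 CPM in vehicle and 3.04, 2.96 and 2.79 CPM with THZ1, 1.56 (SE 0.32, adjusted p = 0.00162), with IFIT3 (0.81) and GBP1 (0.70) behind it. SAMD9 (0.99) and HERC6 (0.57) rose in A375, OAS1 in A549 (0.79), and OAS2 (0.79) and USP18 (0.65) in PC9. Over the 6 lines HERC6 was called higher in 4 and lower in 0. RT112 was led by IFIT2, at 9.098, 9.26 and 10.1 CPM in vehicle and 21.7, 20.7 and 23.3 CPM with THZ1, 1.13 (SE 0.11, adjusted p = 4.07e-07), followed by SAMD9L (0.99) and CMPK2 (0.98). STAT2 was the member that rose in N87 (0.27). HERC6 in A375 did not pass without vehicle replicate 3 or THZ1 replicate 4 (adjusted p = 0.0563 to 0.0888). ISG15 in A549 did not pass without vehicle replicate 2, vehicle replicate 3 or THZ1 replicate 1 (adjusted p = 0.0945 to 0.159). SAMD9 in A375, IFIT1 in A549 and H3122, IFIT2 in RT112 and STAT2 in N87 passed on each such leave-out. IFIT3 in H3122 did not pass on leaving out any 1 library other than THZ1 replicate 1 (adjusted p = 0.0522 to 0.116). GBP1 in H3122 did not pass on leaving out any 1 library other than vehicle replicate 4 (adjusted p = 0.0813 to 0.188). OAS2 in PC9 did not pass without vehicle replicate 2, THZ1 replicate 2 or THZ1 replicate 3 (adjusted p = 0.051 to 0.0941).

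The largest falls with THZ1 were of the membrane proteins BST2 and IFITM1 in A375. BST2 in A375 was at 6.47, 5.14 and 5.67 CPM in vehicle and 0.354, 0.8495 and 0.8195 CPM with THZ1, -3.11 (SE 0.38, adjusted p = 1.34e-06), and in PC9 it changed by -2.24 (SE 0.31, adjusted p = 3.45e-06). IFITM1 in A375 was at 5.01, 4.495 and 4.93 CPM in vehicle and 0.709, 0.3398 and 0.738 CPM with THZ1, -3.03 (SE 0.26, adjusted p = 1.64e-08), and in PC9 it changed by -1.82. IFITM2 fell in PC9 (-2.19), A549 (-1.41) and N87 (-1.3), and IFITM3 in A549 (-1.72). In all, BST2 was called lower in 4 of 4 lines tested, IFITM1 in 3 of 5, and IFITM2 and IFITM3 in 4 of 6 each. Each of these genes was called higher in 0 lines. A375 vehicle and THZ1 libraries of BST2 and IFITM1 did not overlap. UBA7 fell in A375 (-1.95) and RT112 (-1.03), SAMD9L in A549 (-2.08), ISG20 (-1.0) and OAS1 (-0.43) in H3122, and DDX60 (-0.35) and SP100 (-0.21) in RT112. Over the 6 lines DDX60 was called lower in 5, most in A375 (-1.5), and higher in H3122 (0.51). In N87 the largest falls were IFI44L (-1.51), at 8.06, 6.12 and 9.095 CPM in vehicle and 2.22, 3.07 and 3.25 CPM with THZ1, XAF1 (-1.39) and IFITM2. IFITM2 in N87 did not pass on leaving out any 1 library other than vehicle replicate 4 (adjusted p = 0.0553 to 0.15). OAS1 in H3122 did not pass on leaving out any 1 library other than vehicle replicate 3 or THZ1 replicate 4 (adjusted p = 0.0793 to 0.135). DDX60 in RT112 did not pass on leaving out any 1 library other than vehicle replicate 2 (adjusted p = 0.0509 to 0.148). The cause of these lost calls was not tested, and each concerns a small or scattered change. POLR2A, which encodes the catalytic subunit of RNA polymerase II, stood at 0.84 across lines with THZ1 (adjusted p = 0.079).

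Adding THZ1 to the targeted drug lowered members in N87 and RT112 above all, and in every line more members fell than rose. These comparisons use the same targeted-drug libraries as the comparisons with vehicle, so the values for a member in the pair of comparisons are not independent. In N87, 43 of 45 members tested fell and 0 rose, against 28.8% and 27% of 15370 genes, with a median of -1.67 beside 0.00 for all genes. RT112 had 34 lower and 4 higher of 44, against 31.4% and 32.8%, with medians of -0.91 and 0.00. PC9 had 26 lower and 8 higher of 41, against 34.9% and 33.4%, with medians of -0.39 and 0.00. N87, RT112 and PC9 thus held most of the falls, and RT112 had 34 lower and 5 higher with replicate 1 left out of every arm. In A375, 20 fell and 8 rose of 41, against 33.4% and 35.1%, with medians of -0.07 and 0.01. A549 gave 11 lower and 3 higher of 35, against 20.6% and 20.3%, with medians of -0.16 and 0.00. H3122 gave 7 lower and 3 higher of 42, against 14.3% and 15.3%, with medians of -0.02 and 0.02. The H3122 shares lay near or under those of its genes. The H3122 count of falls ran from 2 to 4 on leaving out combination replicate 1, 3 or 4 or 48 h drug replicate 2, 3 or 4, and was 12 with its 2 groups fitted alone. The count over all H3122 genes moved likewise. In either direction it was 3399 to 3686 on those leave-outs and 5551 of 14154 with the 2 groups alone. The main fit called 2282 higher and 2132 lower. Of the 45 members, 29 fell in 3 or more lines, and 16 fell in some lines and rose in others, with no such count made for all genes. POLR2A rose across lines in this comparison, by 1.25 (adjusted p = 0.000999), as did HEXIM1, an inhibitor of P-TEFb, by 1.05 (adjusted p = 0.00659).

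**Figure D4:**
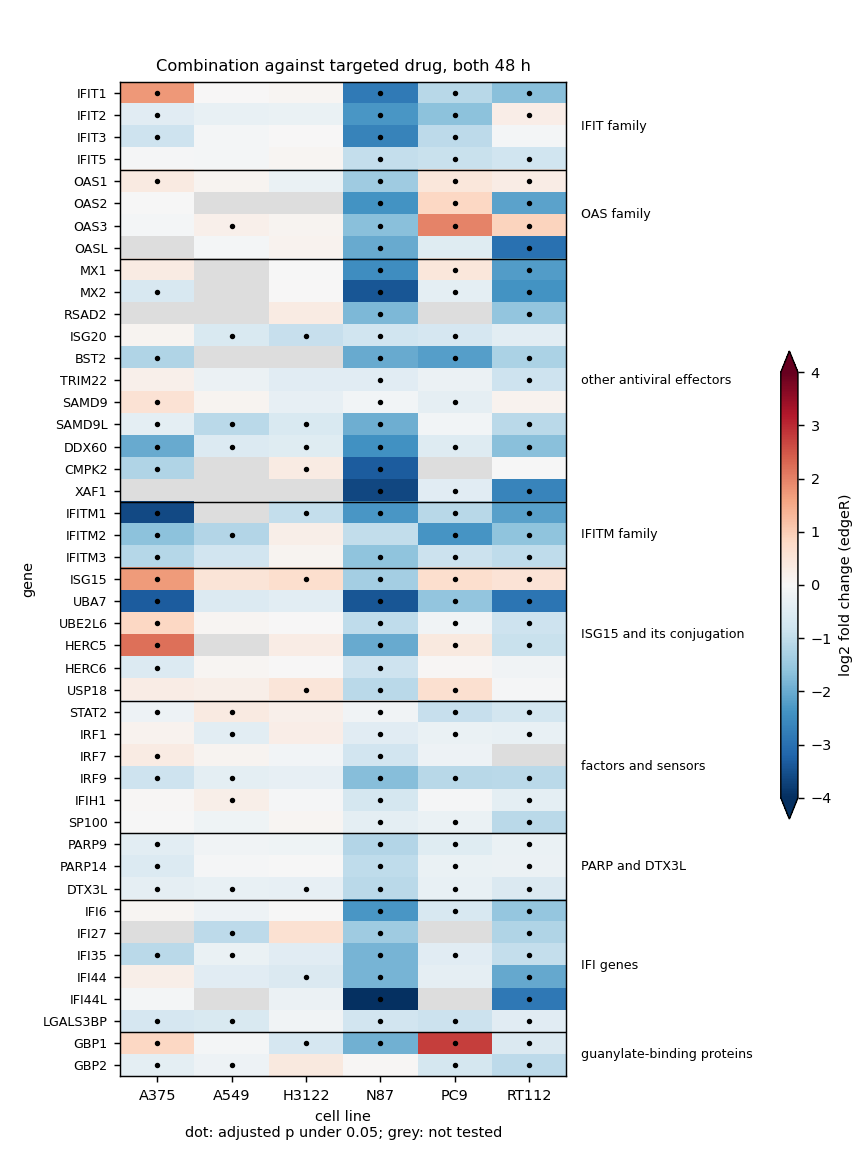
log2 fold change of each member, combination against targeted drug alone, both for 48 h, in 6 lines (edgeR, 3 libraries per arm); red is higher with the combination and blue lower, dots mark adjusted p under 0.05 and grey cells were not tested. The N87 column is blue for 43 dotted members, and IFI44L in N87 is the deepest cell.

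Across lines, 3 of 32 members fell with the combination and 0 rose, against 4.34% and 3.7% of 11875 genes, 8 members had an unadjusted p under 0.05, and the median member was at -0.47. UBA7, the E1 of ISG15 conjugation, was measured at 28.5, 31.9 and 33.4 CPM with drug alone and 3.90, 3.11 and 3.44 CPM with combination in A375, and at 2.44, 2.69 and 2.94 and 2.42, 1.26 and 2.05 CPM in A549. For UBA7 in H3122 the drug alone and combination values were 4.35, 4.93 and 6.25 and 4.02, 4.67 and 2.81 CPM, and in N87 they were 4.21, 5.55 and 3.76 and 0.682, 0.2195 and 0.321 CPM. PC9 held UBA7 at 62.7, 66.02 and 60.2 CPM with drug alone and 21.1, 23.98 and 21.8 CPM with combination, and RT112 at 32.7, 33.5 and 34.1 and 3.67, 3.78 and 5.30 CPM. UBA7 overlapped between arms in H3122 alone, and its change across lines was -1.96 (SE 0.57, adjusted p = 0.0358). IFITM2, which blocks viral fusion, stood at 70.8, 75.1 and 72.6 CPM with drug alone and 27.3, 24.7 and 26.98 CPM with combination in A375, and at 4.299, 3.77 and 4.55 and 1.58, 2.33 and 1.96 CPM in A549. For IFITM2 in H3122 the drug alone and combination values were 11.2, 10.8 and 9.72 and 13.0, 13.4 and 11.04 CPM, and in N87 they were 1.16, 0.404 and 0.297 and 0.292, 0.329 and 0.321 CPM. PC9 held IFITM2 at 3.43, 3.74 and 3.001 CPM with drug alone and 0.642, 1.07 and 0.306 CPM with combination, and RT112 at 10.8, 10.04 and 11.6 and 3.27, 3.27 and 3.66 CPM. IFITM2 overlapped in H3122 and N87, and differed across lines by -1.5 (SE 0.43, adjusted p = 0.0336). DDX60, whose stretch with 1 ISRE match is printed above, was at 10.1, 7.94 and 12.3 CPM with drug alone and 3.03, 2.82 and 2.77 CPM with combination in A375, and at 11.7, 11.4 and 10.5 and 8.56, 7.005 and 8.66 CPM in A549. For DDX60 in H3122 the drug alone and combination values were 14.3, 16.02 and 12.3 and 9.595, 9.899 and 11.1 CPM, and in N87 they were 78.8, 76.1 and 88.8 and 17.5, 14.3 and 14.3 CPM. PC9 held DDX60 at 24.98, 26.7 and 25.01 CPM with drug alone and 18.3, 18.1 and 20.6 CPM with combination, and RT112 at 19.1, 26.2 and 22.6 and 6.13, 7.72 and 6.94 CPM. DDX60 fell in every line, most in N87 (-2.43) and A375 (-2.0), and its change across lines was -1.2 (SE 0.37, adjusted p = 0.0436). Without A375, N87, PC9 or RT112 no member passed across lines, with adjusted p = 0.0874 to 0.187 for DDX60, 0.0531 to 0.138 for IFITM2 and 0.104 to 0.183 for UBA7, and without A549 the count of falls was 8. DESeq2 called 6 lower and 0 higher, 1 was called lower with the 2 arms fitted alone, and no member was higher at an unadjusted p under 0.05 with the edgeR test.

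The combination took some members in N87 below their vehicle level. IFI44L in N87 was at 8.06, 6.12 and 9.095 CPM in vehicle, 23.5, 25.1 and 30.7 CPM with lapatinib alone and 0.3895, 0.658 and 0.321 CPM with the combination, -5.86 (SE 0.29, adjusted p = 1.43e-12). XAF1 in N87 was at 8.54, 5.83 and 9.37 CPM in vehicle, 23.4, 27.2 and 30.7 CPM with lapatinib alone and 2.53, 1.98 and 2.14 CPM with the combination, -3.63 (SE 0.17, adjusted p = 7.95e-13). IFIT1 in N87 was at 37.9, 40.5 and 44.6 CPM in vehicle and 12.5, 13.2 and 11.9 CPM with the combination, and changed from lapatinib alone by -2.84 (SE 0.09, adjusted p = 3.36e-15). For IFI44L, XAF1 and IFIT1 the combination libraries of N87 lay below every vehicle library. MX2 (-3.43), IFIT3 (-2.67), MX1 (-2.48), OAS2 (-2.4), IFIT2 (-2.32) and BST2 (-2.03) also fell in N87. STAT2 fell there by a small amount (-0.15) that was also called, whereas GBP2 was at 0.04 and not called. By role, all 4 IFIT genes, all 4 OAS genes, all 11 other antiviral effectors, all 6 genes of ISG15 and its conjugation and all 6 IFI genes fell in N87. In RT112, OASL was at 33.4, 2.41 and 3.24 CPM with BGJ398 alone and 2.47, 1.01 and 1.32 CPM with the combination, -2.99 (SE 0.97, adjusted p = 0.0137), and without 48 h drug replicate 1 its change was -0.75 (adjusted p = 0.417). That library held OASL far above the other BGJ398 libraries. UBA7 (-2.92), IFI44L (-2.87), XAF1 (-2.63), MX2 (-2.4) and OAS2 (-2.13) fell in RT112, while OAS3 (0.91), ISG15 (0.56) and OAS1 (0.29) rose.

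OAS3 and GBP1 in PC9, and HERC5 in A375, ran against the general fall. OAS3 in PC9 was at 56.1, 53.96 and 47.3 CPM in vehicle, 8.59, 6.41 and 6.82 CPM with erlotinib alone and 32.3, 30.01 and 28.5 CPM with the combination, 1.97 (SE 0.11, adjusted p = 1.58e-12). GBP1 in PC9 was at 11.2, 11.4 and 11.1 CPM in vehicle, 3.26, 4.53 and 4.55 CPM with erlotinib alone and 30.2, 28.6 and 30.2 CPM with the combination, 2.78 (SE 0.10, adjusted p = 2.36e-15). OAS3 and GBP1, both low with erlotinib, were higher in every combination library than in any erlotinib library. OAS2 rose by 0.82 in PC9, and IFITM2 (-2.36), BST2 (-2.21) and IFIT2 (-1.64) fell. HERC5 in A375 was at 5.98, 5.298 and 5.92 CPM in vehicle, 1.34, 1.75 and 1.04 CPM with vemurafenib alone and 5.72, 7.58 and 7.46 CPM with the combination, 2.22 (SE 0.23, adjusted p = 9.79e-08), and IFIT1 (1.73) and ISG15 (1.71) also rose there. IFITM1 (-3.61), UBA7 (-3.33) and DDX60 (-2.0) gave the largest falls of A375. HERC5 and ISG15, ligase and modifier of the same pathway, thus rose in A375 while UBA7, the enzyme that activates ISG15, fell. In A549, STAT2 (0.37), IFIH1 (0.24) and OAS3 (0.22) rose, and IFITM2 (-1.16), SAMD9L (-1.09) and IFI27 (-1.05) fell. In H3122, ISG15 (0.67), USP18 (0.47) and CMPK2 (0.34) rose, and IFITM1 (-0.94), ISG20 (-0.92) and GBP1 (-0.67) fell. OAS2 in PC9 did not pass without combination replicate 2 or 48 h drug replicate 3 (adjusted p = 0.0536 to 0.0644). IFIH1 in A549 did not pass on leaving out any 1 library other than combination replicate 2 (adjusted p = 0.0503 to 0.179). IFI27 in A549 did not pass on leaving out any 1 library other than 48 h drug replicate 4 (adjusted p = 0.0541 to 0.246). ISG20, USP18 and ISG15 in H3122 passed on every such leave-out. CMPK2 in H3122 did not pass on leaving out any 1 library other than 48 h drug replicate 2 or combination replicate 4 (adjusted p = 0.0518 to 0.0672). GBP1 in H3122 did not pass on leaving out any 1 of the 6 libraries (adjusted p = 0.0585 to 0.176). IFITM1 in H3122 did not pass on leaving out any 1 library other than 48 h drug replicate 2 or combination replicate 4 (adjusted p = 0.0679 to 0.0951).

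Set against THZ1 alone rather than the targeted drug alone, the combination held ISGF3 subunits higher. Across lines, 5 of 32 members were called higher with the combination than with THZ1 and 0 lower, against 10.1% and 10.6% of 11875 genes, with a median of 0.47 and 8 members at an unadjusted p under 0.05. STAT2 was measured at 56.02, 53.7 and 55.1 CPM with THZ1 and 101, 98.1 and 112 CPM with combination in A375, and at 18.97, 19.7 and 21.1 and 54.9, 65.1 and 55.4 CPM in A549. For STAT2 in H3122 the THZ1 and combination values were 35.2, 37.03 and 38.1 and 67.8, 68.5 and 63.5 CPM, and in N87 they were 53.8, 56.9 and 53.5 and 115, 113 and 119 CPM. PC9 held STAT2 at 21.3, 23.5 and 21.99 CPM with THZ1 and 50.6, 52.5 and 54.97 CPM with combination, and RT112 at 44.6, 44.2 and 44.2 and 88.8, 93.3 and 93.8 CPM. STAT2 was higher with the combination in every library of every line than with THZ1, a change of 1.14 (SE 0.21, adjusted p = 0.00209), and it passed without any 1 line. IRF9, its partner, ran at 7.80, 5.78 and 7.05 CPM with THZ1 and 11.96, 9.91 and 13.2 CPM with combination in A375, and at 4.81, 2.55 and 3.71 and 14.4, 17.02 and 14.6 CPM in A549. For IRF9 in H3122 the THZ1 and combination values were 15.1, 11.02 and 15.5 and 18.2, 19.5 and 18.6 CPM, and in N87 they were 13.5, 16.01 and 17.6 and 16.2, 14.6 and 14.5 CPM. PC9 held IRF9 at 4.36, 3.799 and 4.77 CPM with THZ1 and 5.502, 6.84 and 7.56 CPM with combination, and RT112 at 5.31, 7.85 and 6.54 and 16.01, 15.02 and 16.3 CPM. IRF9 libraries overlapped in N87, and the change across lines was 0.90 (SE 0.32, adjusted p = 0.0482), which did not pass without any 1 of the 6 lines (adjusted p = 0.0527 to 0.23). TRIM22 stood at 8.69, 6.63 and 5.08 CPM with THZ1 and 11.1, 8.16 and 9.13 CPM with combination in A375, and at 3.98, 3.01 and 3.44 and 3.63, 5.06 and 4.37 CPM in A549. For TRIM22 in H3122 the THZ1 and combination values were 3.73, 3.47 and 4.001 and 6.603, 8.42 and 6.93 CPM, and in N87 they were 6.25, 5.85 and 5.17 and 15.97, 11.2 and 12.3 CPM. PC9 held TRIM22 at 3.45, 3.15 and 2.93 CPM with THZ1 and 4.49, 5.15 and 6.54 CPM with combination, and RT112 at 9.91, 9.97 and 9.95 and 24.2, 23.7 and 26.4 CPM. TRIM22 differed by 0.86 (SE 0.27, adjusted p = 0.0292), and did not pass without A549, H3122, N87 or PC9 (adjusted p = 0.0572 to 0.102). SAMD9 was measured at 53.4, 46.7 and 55.2 CPM with THZ1 and 59.98, 59.95 and 63.5 CPM with combination in A375, and at 11.5, 11.2 and 12.7 and 26.9, 28.99 and 29.6 CPM in A549. For SAMD9 in H3122 the THZ1 and combination values were 11.98, 12.04 and 13.1 and 15.99, 15.9 and 14.96 CPM, and in N87 they were 239.6, 245 and 254 and 585, 583 and 589 CPM. PC9 held SAMD9 at 42.99, 45.96 and 47.6 CPM with THZ1 and 55.5, 59.5 and 56.5 CPM with combination, and RT112 at 224, 235 and 230.1 and 396, 396 and 384 CPM. SAMD9 differed by 0.70 (SE 0.23, adjusted p = 0.0338), and did not pass without A549, N87, PC9 or RT112 (adjusted p = 0.0553 to 0.167). PARP14 was at 31.2, 34.3 and 37.5 CPM with THZ1 and 49.6, 44.4 and 44.7 CPM with combination in A375, and at 43.5, 41.6 and 40.1 and 89.6, 89.02 and 87.5 CPM in A549. For PARP14 in H3122 the THZ1 and combination values were 148, 137 and 146 and 216, 206 and 204 CPM, and in N87 they were 118, 118 and 127 and 132, 119 and 128 CPM. PC9 held PARP14 at 41.5, 51.5 and 44.8 CPM with THZ1 and 67.2, 66.3 and 71.3 CPM with combination, and RT112 at 45.02, 45.5 and 45.3 and 83.1, 92.8 and 95.4 CPM. PARP14 differed by 0.65 (SE 0.19, adjusted p = 0.0189), and did not pass without A549 or PC9 (adjusted p = 0.104 and 0.0513). The count of members called higher was 1 without A549 or without PC9, 2 without N87 and 3 without RT112, and 1 member was lower at an unadjusted p under 0.05 with the edgeR test, while DESeq2 called 0 lower.

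Between 48 h and 7 days of the targeted drug, most members rose in RT112 and most fell in PC9, and the other lines were divided. In RT112, 40 of 44 members tested were higher at 7 days and 1 lower, against 18.5% and 18.5% of 15298 genes, with a median of 0.76 beside 0.00 for all genes. PC9 had 1 higher and 27 lower of 41, against 25.7% and 27.2%, with medians of -0.48 and 0.01. N87 had 18 higher and 14 lower of 45, against 22.3% and 20.3%, with medians of 0.09 and 0.01. RT112 and PC9 thus stood at opposite ends. H3122 had 14 higher and 15 lower of 42, against 30.5% and 33.4%, with medians of -0.01 and -0.01. A549 had 14 higher and 7 lower of 35, against 27.6% and 23.7%, with medians of 0.32 and 0.02. A375 had 7 higher and 5 lower of 41, against 18.6% and 21.4%, with medians of 0.09 and 0.00. The A375 and H3122 shares were near or under those of all genes. Across lines 0 of 32 members were higher and 0 lower with the edgeR quasi-likelihood test, as were 0% and 0% of 11875 genes, 1 member had an unadjusted p under 0.05, DESeq2 called 0 in either direction, and the median was 0.21. The count of rises in A375 was 11 without 7-day drug replicate 1, and that of falls in N87 was 9 without 48 h drug replicate 3. Of the 45 members, 39 were higher in some lines and lower in others. The share of all genes with such mixed calls was not counted, so this may be usual for any gene.

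IFI6, XAF1 and IFI27 led the later rise in RT112. The rise of IFI6 was not particular to RT112, since it was called higher in 5 of 6 lines and lower in PC9 (-0.5). Across lines IFI6 changed by 1.08 (edgeR quasi-likelihood test, unadjusted p = 0.0473, adjusted p = 0.771). IFI6 in RT112 was at 14.4, 15.6 and 18.1 CPM at 48 h and 106, 105 and 105 CPM at 7 days, 2.73 (SE 0.06, adjusted p = 6.95e-14). XAF1 in RT112 was at 0.928, 1.17 and 0.633 CPM at 48 h and 4.30, 5.07 and 5.42 CPM at 7 days, 2.44 (SE 0.38, adjusted p = 9.08e-05), and IFI27 at 1.62, 1.17 and 1.98 CPM at 48 h and 7.87, 7.25 and 7.84 CPM at 7 days, 2.27 (SE 0.34, adjusted p = 6.31e-05). The 7-day libraries of IFI6, XAF1 and IFI27 in RT112 lay above all 48 h libraries. All 4 IFIT genes rose there, IFIT1 by 1.34, as did OAS2 (1.96), IFI44L (1.6), MX1 (1.28) and MX2 (1.23), and IFITM2 was the member that fell (-0.39). IFITM2 in RT112 did not pass on leaving out any 1 library other than 48 h drug replicate 2 or 7-day drug replicate 3 (adjusted p = 0.0777 to 0.185). RT112 replicate 1 of the 48 h arm is the library of that line farthest from its group. With replicate 1 left out of every RT112 arm there were 41 higher and 0 lower. In PC9 the members with the largest falls were IFITM2 (-2.08), IFITM1 (-1.59) and BST2 (-1.48), and IFIT2 (-1.35), IFIT3 (-1.18), IRF9 (-0.84) and STAT2 (-0.62) fell too. OAS3 was the PC9 member that rose, from 8.59, 6.41 and 6.82 CPM at 48 h to 11.5, 11.2 and 9.37 CPM at 7 days, 0.43. OAS3 in PC9 did not pass without 48 h drug replicate 3 (adjusted p = 0.0518).

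The remaining lines each had a few large changes between 48 h and 7 days. In H3122, IFI44L was at 0.246, 0.379 and 0.397 CPM at 48 h and 1.03, 2.14 and 2.05 CPM at 7 days, 2.38 (SE 0.42, adjusted p = 6.85e-05), and IRF9 (1.44), OASL (1.35) and ISG20 (1.34) rose. UBA7 in H3122 was at 4.35, 4.93 and 6.25 CPM at 48 h and 1.34, 0.517 and 1.21 CPM at 7 days, -2.28 (SE 0.29, adjusted p = 1.34e-06), with IFI35 (-1.65) and DDX60 (-1.16) next. IFI44L and UBA7 did not overlap between the 48 h and 7-day libraries of H3122, of which 7-day replicate 1 was the most distant library of the series. Without that library 18 members were higher and 11 lower in H3122, IFI44L changed by 2.65 and UBA7 by -2.52. LGALS3BP in A549 was at 48.6, 46.1 and 47.8 CPM at 48 h and 203, 216 and 218 CPM at 7 days, 2.19 (SE 0.05, adjusted p = 2.08e-18), IFITM3 rose by 1.7 and UBA7 by 1.53, and OAS1 (-0.56), IFI35 (-0.50) and ISG20 (-0.45) fell. N87 was led by GBP1 (1.08), TRIM22 (0.81) and IFI44L (0.80), and IFIT2 (-1.21), OASL (-0.63) and STAT2 (-0.58) fell. In A375, IFIT1 (1.51), IFIT3 (0.69) and OAS2 (0.64) rose, and IFI44L (-2.11), IFITM1 (-0.81) and UBA7 (-0.74) fell. IFI44L thus rose in H3122, N87 and RT112 and fell in A375 over the same interval. In H3122 and A375 it was near 0 in some arms and passed the filter on low counts through arms where it was high. Its rise in H3122 and its fall in A375 therefore follow in part from that filter. OAS2 in A375 did not pass without 48 h drug replicate 4 (adjusted p = 0.0592).

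A summary of each library, the median over members of its log2 change from the vehicle mean of its line, puts all arms on 1 scale. RT112 was highest, with a mean of 1.89 at 48 h of BGJ398, 2.71 at 7 days, 0.31 with THZ1 and 1.16 with the combination. A549 held 1.38 with GSK1120212, 1.56 at 7 days and 1.5 with the combination, beside 0.04 with THZ1. N87 moved from 0.66 with lapatinib to -1.05 with the combination, and stood at -0.31 with THZ1. N87 is the line in which the combination libraries lay below both vehicle and THZ1. A375 ran at 0.40, 0.66, -0.13 and 0.24 for drug at 48 h, drug at 7 days, THZ1 and the combination. For the same 4 arms H3122 ran at 0.40, 0.16, 0.21 and 0.31, and PC9 at 0.33, 0.14, -0.15 and 0.13. The plot of library medians shows that libraries of an arm lay close together, except those of A375 and H3122 at 7 days.

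**Figure D5:**
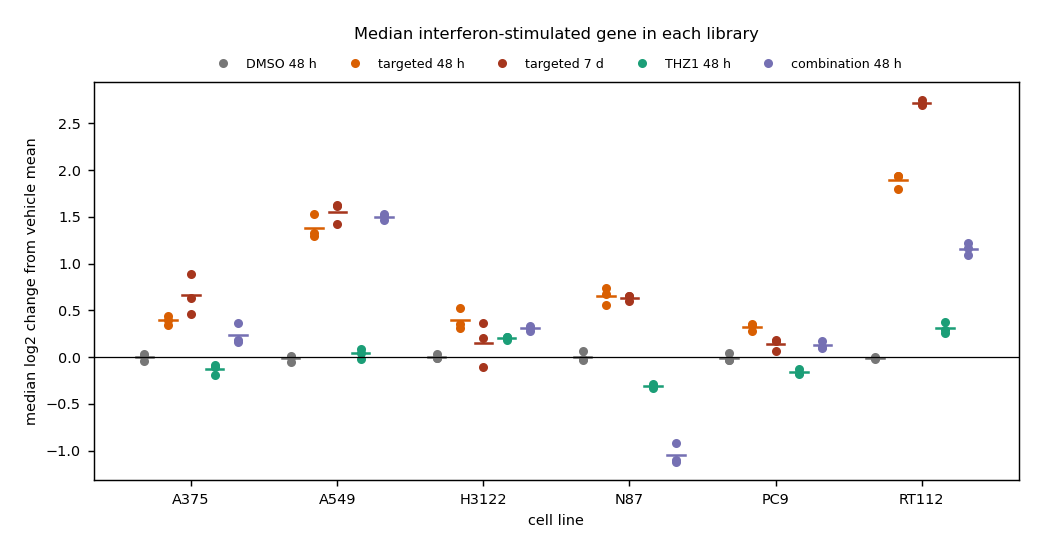
Median log2 change of the members from the vehicle mean of the line, 1 point per library (3 per arm), in 5 arms and 6 lines. RT112 is highest at 7 days (mean 2.71) and N87 with the combination lowest (mean -1.05).

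The response of most members differed between lines, as did that of most genes. A test of the difference between the 6 lines called 45 of 45 members for the targeted drug at 48 h, where 74.8% of 19655 genes were called. For THZ1 it called 40 of 45 (61.4% of all genes), for the combination against the targeted drug 45 of 45 (73.8%), and for 7 days against 48 h 44 of 45 (71.6%). The drugs, doses and lines differ together, so a difference between lines cannot be told apart from a difference between drugs.

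Median changes of members with and without an ISRE match in the promoter window are given as a description. Across lines with the targeted drug, the 17 tested members with a match had a median change of 0.87 and the 9 without had 1.01. Within lines, the medians with the targeted drug were 1.71 for 24 members with a match and 2.02 for 11 without in RT112, and 0.36 and 0.93 in PC9. They were 0.21 and 0.34 in A375, 0.27 and 0.58 in H3122 and 0.42 and 0.74 in N87. A549 went the other way, with 1.63 for members with a match and 1.47 for those without. For the combination against lapatinib in N87 the medians were -1.73 and -1.42. UBA7 and IFIT2, the highest members across lines, have no window in the table, and STAT2, IRF9 and SAMD9L rose without a match in theirs.

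Among genes around the pathway that are not members, the further interferon-responsive genes gave the largest share of rises across lines with the targeted drug among the 3 lists counted here, where 18.6% of all genes rose. Of further interferon-responsive genes 12 of 26 rose, among them PSMB10, an immunoproteasome subunit (1.38), PARP10 (1.21), ZNFX1 (1.05) and APOL6 (1.01). Receptors, kinases and STATs that are not members and rose included JAK1 (0.88), STAT3 (0.83), IL10RB (0.67) and IFNAR1 (0.46). Nucleic acid sensors and adaptors gave 3 of 10: TLR3, the endosomal RNA receptor (1.41), RIGI (0.94) and MAVS (0.49). Among negative regulators 2 of 9 rose, BCL6 (0.81) and IRF2 (0.45). The counts of sensors and of negative regulators are small and not far from the share of all genes. No gene of the sensor, negative regulator or further responsive lists fell across lines with the targeted drug. With the combination against the targeted drug, PSMB10 (-1.09), RNF213 (-0.74), SOCS3 (-1.26) and MAVS (-0.49) fell across lines. Combination against THZ1 called JAK1 (0.77), STAT3 (0.63), TYK2 (0.45), TLR3 (1.05), BCL6 (1.01) and PTPN6 (0.62) higher. None of the genes just named was called across lines with THZ1 alone or in the step from 48 h to 7 days. Within N87, 27 of 31 further responsive genes and 10 of 12 sensors fell with the combination, where 28.8% of all N87 genes fell.

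Most interferon genes themselves were at or near 0, while IFNE in N87 reached a mean of 6.98 CPM with the combination. None of the 21 ligand genes listed reached the level needed for a test across lines, and at least 1 CPM in any arm was reached by 1 in A375, 1 in A549, 2 in N87 and 0 in H3122, PC9 and RT112. In RT112, the line with the largest rise of members, the 21 ligands summed to 0 CPM in vehicle and to at most 0.135 CPM in any arm. IFNE, an epithelial type I interferon, rose in N87 with lapatinib by 2.24 (SE 0.34, adjusted p = 5.77e-06), and in A549 with GSK1120212 by 2.95 (SE 0.52, adjusted p = 3.11e-05). IFNE also rose with THZ1 in A375, by 2.47 (edgeR quasi-likelihood test, adjusted p = 0.00202). All 21 ligands together summed to only 0.175 CPM in A549 vehicle and 0.376 CPM in A375 vehicle. Their sums in the highest arm were 1.87 and 2.03 CPM. In A549 and A375, IFNE could thus pass the filter on low counts only through arms where it was higher, so its rise there follows in part from that filter. In N87 the mean IFNE level was 0.757 CPM in vehicle, 3.87 CPM with lapatinib and 6.98 CPM with the combination, in which the members fell. RNA-seq at this depth does not show interferon protein, and a ligand at 0 was not detectable at this depth. The 5 leukocyte markers checked summed to at most 15.3 CPM in any arm of A549, where ITGAM went from 3.11 CPM in vehicle to 15.03 CPM with GSK1120212, and to at most 5.65 CPM in the other lines, and PTPRC was at 0 in every library of H3122. Of 4 fibroblast and endothelium markers found, the sum went from 16.5 CPM in vehicle to 203 CPM in the highest arm of A549 and from 22.1 to 60.5 CPM in RT112. In A549 nearly all of this was COL1A1, a collagen chain, at 16.5 CPM in vehicle, 90.2 CPM with GSK1120212 for 48 h and 202 CPM at 7 days, while COL1A2, its partner chain, stayed at or below 0.169 CPM in every library of those 3 arms. In RT112 COL1A1 went from 20.9 CPM in vehicle to 35.6 CPM with BGJ398 for 48 h and 47.0 CPM at 7 days, and CDH5, an endothelial cadherin, from 1.26 to 5.93 and 12.6 CPM. The part of these markers in the A549 and RT112 results was not tested.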

How the data were processed

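RNA-seq was analysed from 90 libraries of 6 human cancer cell lines in 30 groups of 3. The authors deposited RSEM expected counts per gene (estimated counts, 7.83% to 13.75% of values not whole in a library). Per the submitters' processing notes these used RSEM 1.2.12, Bowtie2 2.2.1 and hg19. For the gene annotation the sources used here give no version, and 47111 of 53893 identifiers had a symbol. Counts were rounded to whole numbers. CPM values are counts scaled to the library's gene total. Libraries held 5641054 to 14361081 counts, and counting intervals cover counting error only.

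Within a line, edgeR 4.0.16 (R 4.3.3) fitted the 15 libraries in 5 groups with TMM scaling, filterByExpr and the quasi-likelihood test. Across lines, counts were summed per line and arm, the cell line was a term of the model, and genes needed 1 CPM in at least 3 libraries of every line. A further edgeR test asked whether a change differed between lines. P-values were Benjamini-Hochberg adjusted over all genes tested and called under 0.05. Log2 fold changes of a gene that is near 0 in an arm depend on edgeR's prior count. The scripts were tested on simulated data.

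Named genes were, across lines, up to 8 called members of largest change. Within a line they were up to 3 called rises and 3 called falls, and for the other lists up to 4 called genes. Others named for their role were chosen after their values were seen. Of the pathway genes listed, 1 is not reported here, nor are counts over its list. The members and lists were chosen with earlier results of these data known. Alternatives were DESeq2 1.42.0, RLE scaling, other filters, fitting the compared groups alone, a replicate block, and leaving out libraries or lines. Replicate numbers were not used to pair the samples in the main fits. In none of the 8 comparisons with 3 shared numbers was every correlation of same-numbered deviations over 0.1 (range -0.05 to 0.07). In comparisons with 2 shared numbers the range was -0.06 to 0.28, with the 4 values over 0.1 all in RT112. RT112 shared 2 numbers in every comparison, so the rule on 3 shared numbers did not cover it. Its replicate 1 gave 0.28 for drug at 48 h, 0.11 for the combination and 0.23 for 7 days.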

Additional observations from a re-analysis of the deposited data

Results flagged for a closer look

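Among the 128 sets of 6 line-level changes that could be checked for a line far from the others, 9 had one, and chance alone gives about 1 in 20. With the targeted drug at 48 h, LGALS3BP was at 2.98 in A549 (-0.01 to 0.97 in the other lines) and OAS3 at -2.71 in PC9. With THZ1, IFI35 was at 0.66 in RT112 (-0.64 to -0.28 elsewhere), IFITM3 at -1.72 in A549 (-0.44 to -0.01) and UBE2L6 at 0.69 in H3122 (-0.46 to -0.13). With the combination against the targeted drug, the neighbours DTX3L and PARP9 were at -1.08 and -1.16 in N87, where the other lines ran from -0.58 to -0.28 and from -0.49 to -0.14. Between 48 h and 7 days, ISG20 was at 1.34 in H3122 (-0.64 to 0.1 elsewhere) and LGALS3BP at 2.19 in A549 (-0.13 to 0.74).

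The change differed between the 6 lines, by the edgeR test of the difference itself, for 45 of 45 members with the targeted drug, 40 with THZ1, 45 with the combination and 44 between 48 h and 7 days. In the same order, 74.8%, 61.4%, 73.8% and 71.6% of all 19655 genes were called, so most genes differed between lines too. Among members that led across lines with the targeted drug, the adjusted p of that test was 1.67e-14 for UBA7, 3.13e-18 for IFIT2, 1.09e-17 for IRF9, 1.62e-25 for SAMD9L, 1.08e-14 for IFIT3, 5.35e-10 for IFI6, 2.87e-24 for STAT2 and 7.62e-18 for IFIT1. For the combination it was 1.2e-22 for DDX60, 6.48e-17 for IFITM2 and 1.95e-20 for UBA7. With the targeted drug IFIT1 was at -0.50 in A375, and the other 7 members just named for that drug were above 0 in all 6 lines.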

How the results depend on the processing

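No named member changed direction under an alternative that was run. Of the recomputed counts of members called, 582 stayed within 1.5 times of the reported count and 56 did not, and the cause was not tested. Across lines with the targeted drug, 1 member was lower under DESeq2, and leaving out a line gave 10 to 19 higher. For the combination against the targeted drug, 6 were lower under DESeq2, 1 with the 2 arms fitted alone and 0 to 8 on leaving out a line. Against THZ1, filterByExpr gave 2 higher and leaving out a line 1 to 5. Within lines, RLE scaling gave 5 rises for the combination in A549. DESeq2 gave 1 fall with THZ1 in H3122, 3 with lapatinib in N87, 2 with THZ1 in RT112 and 0 at 7 days in RT112. With no filter the falls numbered 11 for the combination in H3122, 3 with lapatinib in N87 and 2 at 7 days in RT112, and 2 members rose at 7 days in PC9. With the compared groups fitted alone, 16 rose with THZ1 and 5 rose and 12 fell with the combination in H3122, 3 fell with lapatinib in N87 and 0 fell at 7 days in RT112. In H3122 these fits also called more of all genes than the main fits did. The replicate block gave 3 falls for the combination in H3122 and 3 with lapatinib in N87, and moved no other count by over 1.5 times. On leaving out 1 library, rises numbered 5 to 11 at 7 days in A375, 5 to 8 with THZ1 in A549, 4 to 6 with THZ1 in H3122 and 0 to 2 at 7 days in PC9. Falls numbered 1 to 2 with THZ1 and 2 to 4 with the combination in H3122, 3 to 5 with lapatinib and 9 to 15 at 7 days in N87, 2 to 4 with THZ1 and 0 to 1 at 7 days in RT112. RT112 with replicate 1 left out of every arm had 0 falls at 7 days. Of the calls of named members, 78 were lost on leaving out a library, 34 on leaving out a line, 11 under DESeq2, 10 with the replicate block, 7 with no filter, 6 with filterByExpr across lines, 4 with only the compared arms, 3 with only the compared groups, 2 without RT112 replicate 1 and 1 under RLE scaling. Depth limits members near 0, such as IFI44L in RT112 vehicle and UBA7 in A549 vehicle, whose changes rest on few vehicle counts.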
